A study of Mus musculus with 2 samples.

Results

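The 10 transcripts described here are protein-coding messengers of the mouse mitochondrial genome, mt-Nd1, mt-Nd2, mt-Nd3, mt-Nd4, mt-Nd5, mt-Cytb, mt-Co1, mt-Co2, mt-Co3 and mt-Atp6. They were taken by symbol from the 31053 genes listed in the deposited feature files, and all 10 were found. The files list 13 mitochondrial genes in all, and the other 3 are mt-Nd4l, mt-Atp8 and mt-Nd6. Liver cells of C57BL/6 mice were profiled by droplet sequencing after 6.5 weeks on chow or on a NASH (non-alcoholic steatohepatitis) diet rich in fructose, fat and cholesterol. Per the labels, cells were freed with collagenase and separated on Percoll so that hepatocytes and non-parenchymal cells were both kept, and no cell type was selected. Each diet had 1 library, so there is no replicate check on any difference between diets, and no test was run. The labels used here give neither the age or sex of the mice nor how many went into a library.

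Mitochondrial messengers are made from long precursor RNAs copied from the circular mitochondrial DNA. Transfer RNAs lie between most of the genes, and cutting them out releases the single messengers, which then receive a short poly(A) tail. For some of them this tail completes the stop codon. The encoded proteins sit in the inner membrane: the Nd proteins in complex I, cytochrome b in complex III, Co1, Co2 and Co3 in the cytochrome oxidase complex IV, and Atp6 in ATP synthase, complex V. Hepatocytes are rich in mitochondria. In droplet data a high share of these transcripts is widely used as a sign that cytoplasmic RNA has leaked from a cell.

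Because the library kit captures RNA by its poly(A) tail, the 3′ end of each annotated gene is shown for 7 of the 10 messengers. The first 4 are the ones whose proportions differed most by diet or by depth below, or that served as their reference, and the other 3 end with an incomplete stop codon. The bases come from the GENCODE M21 annotation of GRCm38, plus strand of the mitochondrial chromosome, at chrM:6843-6872 (mt-Co1), chrM:8578-8607 (mt-Atp6), chrM:3678-3707 (mt-Nd1), chrM:4922-4951 (mt-Nd2), chrM:9361-9390 (mt-Co3), chrM:11515-11544 (mt-Nd4) and chrM:15259-15288 (mt-Cytb). Each line gives the last 30 bases of the gene, 5′ to 3′, and the capitals mark the encoded bases of the stop codon.
mt-Co1: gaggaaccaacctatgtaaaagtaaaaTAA
mt-Atp6: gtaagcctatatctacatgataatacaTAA
mt-Nd1: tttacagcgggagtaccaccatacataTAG
mt-Nd2: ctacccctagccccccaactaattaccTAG
mt-Co3: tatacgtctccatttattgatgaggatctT
mt-Nd4: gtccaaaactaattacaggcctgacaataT
mt-Cytb: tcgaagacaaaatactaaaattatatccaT

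In mt-Co3, mt-Nd4 and mt-Cytb the annotated gene ends on the T of an incomplete stop codon, and the other 7 genes carry a whole TAA or TAG. The genes run from 348 bases (mt-Nd3) to 1824 bases (mt-Nd5) without introns. mt-Atp6 overlaps mt-Atp8 by 43 bases and shares 1 base with mt-Co3, and mt-Nd5 overlaps the 3′ end of mt-Nd6, on the other strand, by 14 bases. Nuclear copies of mitochondrial DNA can hold the same letters. In the annotation, 9 of the 10 genes had at least 1 nuclear pseudogene of at least 90% identity over at least 90 bases, and mt-Nd1 had none. For mt-Atp6, mt-Co1, mt-Co2, mt-Co3, mt-Nd3 and mt-Nd4 a copy on chromosome 1 reached at least 99%. None of the 15 copies is listed in the feature files, and no source used here says how reads shared with them were counted, so the values of these 9 genes are uncertain to that extent.

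Unique molecular identifiers (UMIs), each standing for 1 captured RNA molecule, numbered 71635757 in the 7359 chow barcodes (median 4843) and 39440182 in the 5881 barcodes of the NASH diet (median 2305). Every deposited barcode was used, so a barcode may be a cell, a damaged cell or a droplet of free RNA. Barcode sequences shared by both libraries numbered 69, which is 0.938% of those in chow and 1.17% of those from the NASH diet. The intervals below are exact 95% intervals, Poisson for levels and binomial (Clopper-Pearson) for shares, and they cover counting error only.

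Pooled over all barcodes, the 10 messengers made up a similar part of the RNA on both diets. They held 24098462 UMIs in the chow library, 33.6% (33.6 to 33.7) of the total, and 14754840 in the NASH diet library, 37.4% (37.4 to 37.4). This is a log2 ratio of 0.15, or 1.11-fold higher on the NASH diet. Counted with equal weight per barcode, the mean share gave a log2 ratio of -0.030 instead, so its direction depends on the weighting. The makeup of the libraries also differed, with 34.9% of chow but 19.1% of NASH diet barcodes over 80% mitochondrial. In hepatocyte, endothelial and Kupffer and macrophage barcodes, gated below, the share was 1.37-, 1.30- and 3.1-fold higher on the NASH diet. The 10 messengers carried 98.6% of the UMIs of the 13 mitochondrial genes in either library. The median barcode held 3134 of their UMIs in chow and 633 on the NASH diet, and 25.2% of chow barcodes against 6.43% of NASH diet barcodes had at least 1 of the 10 at a count of 0.

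As levels in CPM, counts scaled to a common library total, 10 of 10 members were higher on the NASH diet and 0 were past 2-fold, where 5.63% of 5704 genes with a mean of at least 10 CPM were past 2-fold in either direction. The log2 ratios of the levels ran from 0.10 for mt-Nd1 to 0.28 for mt-Nd2, with a median of 0.16. Over all 5704 genes the median was 0.15 and 69.2% were higher, so the members stood near the middle of the genes tested. mt-Atp6 had the most UMIs, at 64412 CPM in chow (64354 to 64471) and 71538 on the NASH diet. mt-Nd5, the longest gene, had the fewest of the 10, at 3685 CPM (3671 to 3699) and 4457.

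The proportion of each messenger among the UMIs of the 10 takes out the total. On that scale the profiles of both libraries were close, and 0 of 10 proportions differed by 1.5-fold or more. In level, 14.9% of the 5704 genes differed by that much. The 2 measures are unlike, since proportions leave out any change shared by the 10 and sum to a fixed total. The 5 complex I messengers together held 23.4% in chow and 23.8% on the NASH diet. mt-Cytb, the only complex III messenger, held 9.92% and 10.1%, the complex IV messengers 47.5% and 47.0%, and mt-Atp6 19.1% on either diet, where the interval of the diet ratio included no change.

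Within complex I the largest member was mt-Nd4, with 8.34% of the 10 messengers' UMIs in chow and 8.15% on the NASH diet. mt-Nd2 followed with 6.68% (6.67 to 6.69) and 7.29% (7.28 to 7.30), a log2 ratio of 0.13. It had the largest ratio of the 10. Next came mt-Nd1 with 5.36% and 5.16%, a log2 ratio of -0.05. mt-Nd3 held 1.96% and 1.98%, and mt-Nd5 1.10% and 1.19%, a log2 ratio of 0.12. All 5 encode membrane subunits of complex I, and their proportions did not move in 1 direction.

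Of the core oxidase subunits, mt-Co1 held 18.2% of the 10 messengers' UMIs in chow and 18.0% on the NASH diet. mt-Co3 held 15.7% and 15.3%, and mt-Co2, which takes electrons from cytochrome c, held 13.6% and 13.7%. Their log2 ratios lay between -0.04 and 0.01. Under the 9 other ways of counting listed with the processing, only mt-Nd2 and mt-Cytb (higher on the NASH diet) and mt-Nd4 (lower) kept their sign throughout. The ratio of mt-Nd2 ranged from 0.11 to 0.24, while those of the other 7 messengers turned in at least 1 of the 9. The 0.24 came from barcodes under 2000 UMIs, which included 201 chow but 0 NASH diet barcodes with over 80% mitochondrial UMIs. Without those over 80% the mt-Nd2 ratio was 0.12. mt-Nd5 turned only under 2000 UMIs, and without those over 80% its ratio there was 0.05 (-0.02 to 0.13).

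A 3′ kit counts 1 UMI per captured molecule, whatever its length, and priming can also start on internal stretches of A. The longest run of A inside a gene was 8 bases in mt-Nd2 and between 4 and 7 in the others. UMIs divided by gene length are thus only a description here and no measure of abundance. Per base of gene, the chow library gave 6776 UMIs for mt-Atp6, 4840 for mt-Co3 and 4790 for mt-Co2. mt-Co1 stood at 2833 and mt-Cytb at 2089. mt-Nd2, mt-Nd4, mt-Nd3 and mt-Nd1 lay close together between 1349 and 1551, and mt-Nd5 was far below at 145. Before division by length, mt-Nd3 had 472560 UMIs and mt-Nd4 had 2009048. On the NASH diet the order began alike, with mt-Atp6 at 4143 UMIs per base, mt-Co2 at 2952, mt-Co3 at 2876 and mt-Co1 at 1718, and mt-Nd5 was again lowest at 96.4. mt-Co2 and mt-Co3 exchanged places.

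The other 3 mitochondrial genes had few UMIs. Set against the UMIs of the 10, mt-Nd4l, a small complex I subunit read from the same messenger as mt-Nd4, stood at 1.07% in chow and 0.992% on the NASH diet. mt-Atp8, which lies just before mt-Atp6 and overlaps it, stood at 0.303% and 0.395%, a log2 ratio of 0.39. mt-Nd6 stood at 0.0608% and 0.0743%, a log2 ratio of 0.29. It is the only protein-coding gene read from the other strand. Both ratios exceeded that of any of the 10, on 58335 and 10962 UMIs in the NASH diet library.

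The barcodes were then divided by the summed share of the 13 mitochondrial genes into 4 bands, up to 15%, over 15 to 30%, over 30 to 80% and over 80%. The band bounds the members' level, so only the proportions among them are read. Within a band the level still differed by diet. The members held 9.32% of UMIs in chow and 6.78% on the NASH diet up to 15%, but 19.2% and 23.0% over 15 to 30%. The bands held 2453, 1873, 463 and 2570 barcodes in chow, and 492, 1878, 2389 and 1122 on the NASH diet. Members' UMIs per pool of diet and band ranged from 254418 to 13403920.

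Across these 8 pools, the highest proportion of a messenger was between 1.09-fold (mt-Cytb) and 1.54-fold (mt-Nd5) the lowest. Between diets within a band, 0 of 40 ratios reached 1.5-fold. mt-Nd2 was the only messenger whose ratio had the same sign in all 4 bands. It was higher on the NASH diet with log2 ratios of 0.20, 0.12, 0.17 and 0.10 from the lowest band to the highest. In chow its proportion stayed between 6.58% and 6.78%, and on the NASH diet between 7.21% and 7.60%, so the diets did not overlap. When only barcodes with 2000 or more UMIs were counted, mt-Nd2 was again the only one. No share of other genes with the same sign in all 4 bands stands beside this count. Whether the count exceeds what unrelated signs would give was not tested.

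**Figure D1:**
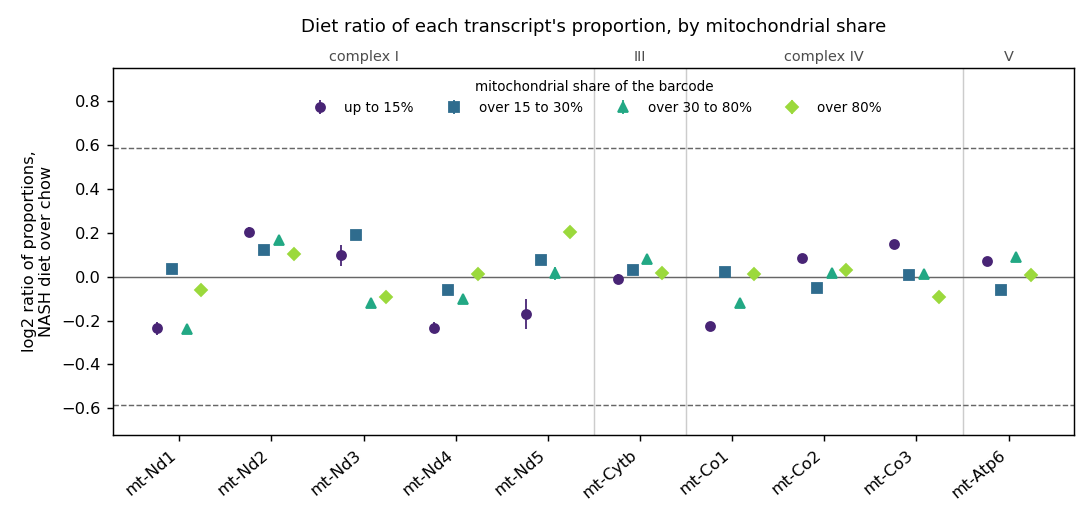
Log2 ratio of each messenger's proportion, NASH diet over chow, in the 4 bands of mitochondrial share. Bars are 95% counting intervals, dashed lines mark 1.5-fold either way, and all 40 points lie between them, with mt-Nd2 above 0 in every band.

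mt-Co1 and mt-Nd1 showed where the diets parted. Up to 15% mitochondrial UMIs, mt-Co1 held 17.8% in chow and 15.2% on the NASH diet, a log2 ratio of -0.22. Over 30 to 80% it held 17.7% and 16.4%. In the bands of over 15 to 30% and over 80% the ratio was 0.02 and 0.01. For mt-Nd1 the same bands differed: the log2 ratio was -0.24 up to 15% and -0.24 over 30 to 80%, against 0.03 over 15 to 30% and -0.06 over 80%. mt-Nd4 was likewise lower on the NASH diet up to 15%, at 6.80% against 7.99%. Among barcodes with 2000 or more UMIs, the ratios of mt-Co1 and mt-Nd1 over 30 to 80% were only 0.01 and -0.08. Up to 15% they stayed at -0.24 and -0.25. Barcodes under 2000 UMIs were 124 of the 463 over 30 to 80% in chow and 1848 of the 2389 on the NASH diet, so diet and depth are mixed there.

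Some members moved with the band itself. mt-Co3 held 14.0% in the band of over 15 to 30% in chow and 16.8% over 80%, while on the NASH diet it was highest, at 17.2%, in the lowest band. mt-Atp6 was highest in the lowest band on both diets, at 20.6% and 21.7%. The widest relative range was that of mt-Nd5, from 0.856% in the lowest to 1.32% in the highest band, both on the NASH diet, which is 1.54-fold. The 2 pools at the ends of that range also differed in median UMIs per barcode, at 4307 and 5846.

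**Figure D2:**
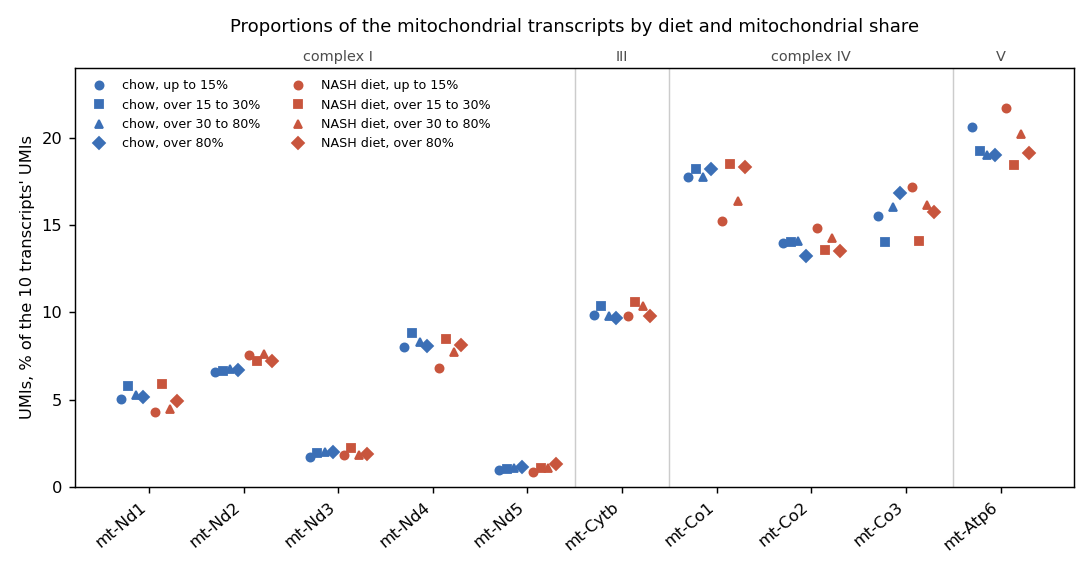
Proportion of each messenger among the UMIs of the 10, in percent, for chow (blue) and the NASH diet (red), with 1 point for each band of mitochondrial share. mt-Atp6 and mt-Co1 lead in most pools, mt-Nd3 and mt-Nd5 are lowest in all, and the spread over bands is widest for mt-Co1, mt-Co3 and mt-Atp6.

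Barcodes just inside and just outside a band limit are shown by their mt-Co1 proportion. Chow barcodes at over 14 to 15% (130 barcodes) held 18.8% and those at over 15 to 16% (180) held 18.7%. The NASH diet barcodes there held 14.8% (61) and 17.9% (63). At the 80% limit, chow barcodes at over 79 to 80% (29) held 13.7% and those at over 80 to 81% (24) held 12.0%. The NASH diet ones held 17.4% (12) and 19.3% (13). The chow barcodes on either side of 80% thus lay below the pooled value of either band, 17.7% and 18.2%.

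The profile also differed with the depth of the barcodes. After the values had been seen, each band was split at 2000 UMIs per barcode, and among barcodes up to 80% mitochondrial the same change of profile appeared on both diets. Shallow barcodes (under 2000 UMIs) numbered 2121 in chow and 2810 on the NASH diet, and deep ones 2668 and 1949. All 10 messengers moved the same way on both diets, with 5 higher and 5 lower in shallow barcodes. mt-Nd1 was the only one past 1.5-fold on both diets. Of 6882 non-mitochondrial genes, taken among non-mitochondrial UMIs, 38.3% were past 1.5-fold the same way on both diets. A change of profile with depth was thus not particular to the mitochondrial messengers. No share of genes by direction alone stands beside the 10 of 10.

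Among the complex I messengers, mt-Nd1 held 3.28% in shallow and 5.69% in deep chow barcodes, 1.74-fold lower. On the NASH diet it held 2.93% and 5.75%, 1.97-fold lower. mt-Nd4 was lower in shallow barcodes too, at 6.53% against 8.73% in chow and 6.21% against 8.47% on the NASH diet. mt-Nd3 and mt-Nd5 followed, with log2 ratios of shallow over deep of -0.34 and -0.38 in chow and -0.54 and -0.43 on the NASH diet. mt-Nd2, whose product belongs to the same complex, went the other way, at 8.0% in shallow and 6.61% in deep chow barcodes and at 8.67% and 7.15% on the NASH diet.

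The oxidase messengers divided as well. mt-Co1 held 12.4% of the members' UMIs in shallow and 18.2% in deep chow barcodes, a log2 ratio of -0.55. On the NASH diet it held 11.9% and 18.6%, a log2 ratio of -0.64. mt-Co3 was higher in shallow barcodes, at 18.5% against 14.3% in chow and 18.4% against 14.3% on the NASH diet. mt-Co2 differed little, at 14.9% against 14.0% and at 15.1% against 13.6%. mt-Atp6 held 23.4% against 19.2% in chow and 23.9% against 18.4% on the NASH diet, and mt-Cytb changed least, with log2 ratios of 0.05 and 0.03.

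**Figure D3:**
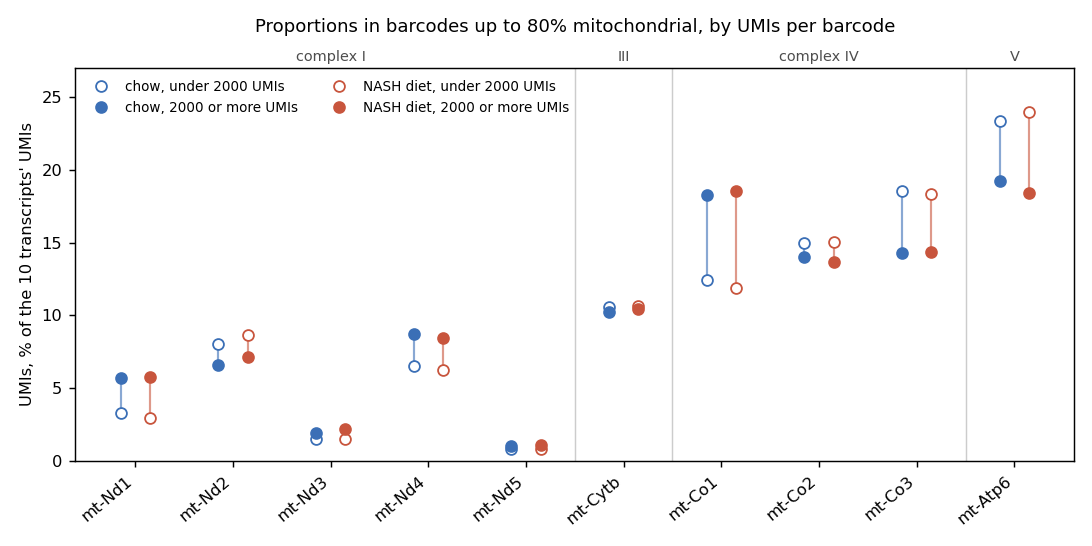
Proportion of each messenger among the UMIs of the 10, in percent, in barcodes up to 80% mitochondrial with under 2000 UMIs (open) and with 2000 or more (filled), for chow (blue) and the NASH diet (red). A line joins the values of 1 diet, and for each messenger both lines run the same way, downward from filled to open for mt-Co1 (18.2% to 12.4% in chow).

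Within a depth class, pooled over the 3 bands up to 80%, the largest difference between diets had a log2 size of 0.16 both in shallow and in deep barcodes, and in shallow barcodes it was the lower mt-Nd1 of the NASH diet. In single bands it could be larger. In deep barcodes up to 15%, mt-Nd4 held 8.18% in chow and 6.85% on the NASH diet, a log2 ratio of -0.25, and mt-Nd1 and mt-Co1 had -0.25 and -0.24. There mt-Nd4 differed less between shallow and deep NASH diet barcodes, at 6.21% and 6.85%, than between diets. With barcodes over 80% included, mt-Nd1 in shallow barcodes had a log2 ratio of -0.43 between diets. The shallow barcodes over 80% were 201 in chow, with 281710 of its 508754 shallow member UMIs, and 0 on the NASH diet. That ratio thus sets unlike bands side by side. Barcodes under 2000 UMIs made up 31.6% of chow barcodes and 47.8% of those from the NASH diet, so the diet ratio of a pool mixes diet with depth. The messengers higher in shallow barcodes were between 681 and 1144 bases long, and those lower in them between 348 and 1824. The 2 groups of lengths overlapped.

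The ratio of mt-Co1 to mt-Atp6 UMIs sums up the change. In the 6 shallow pools up to 80% it lay between 0.474 and 0.571, and in the deep pools of the same bands between 0.726 and 1.03. The groups of pools did not overlap, at a split chosen after the values had been seen. This was not particular to the pair. Set against the deep pools of all bands, the single proportions of these shallow pools did not overlap either, save those of mt-Cytb and mt-Nd4. No share of other genes with such a gap stands beside this. Deep barcodes over 80% gave a ratio of mt-Co1 to mt-Atp6 of 0.961 in chow and 0.959 on the NASH diet. In chow the 201 shallow barcodes over 80% gave 0.850 (0.839 to 0.860), closer to the deep than to the other shallow pools, and the NASH diet library had 0 such barcodes.

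The ratio was also read by the number of member UMIs per barcode. With 100 to under 300 member UMIs the ratio of mt-Co1 to mt-Atp6 was 0.474 in chow and 0.476 on the NASH diet. With 300 to under 1000 it was 0.844 in chow but 0.512 on the NASH diet, where the median barcode held 3199 and 1199 UMIs in total. In that class diet and total depth cannot be told apart. With 3000 or more it was 0.955 and 0.995.

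Other RNA moved with depth too. Ribosomal protein genes made up between 7.66% and 8.90% of non-mitochondrial UMIs in shallow pools up to 80%, and between 3.19% and 8.39% in deep ones. The summed hepatocyte markers (Alb, Apoa1, Ttr, Serpina1c, Apoc3, Fgb, Trf and Ahsg) made up between 3.18% and 5.18% in shallow and between 3.69% and 11.4% in deep pools. Malat1, a nuclear-retained noncoding RNA, stood at 118 CPM of non-mitochondrial UMIs in shallow chow barcodes up to 15% and at 2305 CPM in deep ones. On the NASH diet these values were 1546 and 6270 CPM. Over 15 to 30%, chow went the other way, at 1480 CPM in shallow against 1243 in deep barcodes. Over 30 to 80% it did so too, at 2810 against 1670 CPM. The NASH diet barcodes in these bands had 1316 against 1621 CPM and 2410 against 4183 CPM, so Malat1 had no common direction with depth. The part of free RNA, of RNA loss and of these other transcripts in the result was not tested.

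The low mt-Co1 was also seen barcode by barcode. Each barcode with at least 200 member UMIs was thinned to 200 of them, which left out 2175 chow and 367 NASH diet barcodes. Of the thinned shallow barcodes up to 80%, mt-Co1 was below mt-Atp6 in 133 of 164 in chow, 81.1% (74.3 to 86.8). On the NASH diet it was below in 2445 of 2482, 98.5% (98.0 to 98.9). Among deep ones it was below in 52.4% and 53.6%. The floor of 200 kept 164 of the 2121 shallow chow barcodes up to 80% but 2482 of the 2810 on the NASH diet. The shallow percentages of the diets thus come from unlike parts of that class. Their intervals treat barcodes of 1 library as separate draws, and such barcodes are not replicates of a diet. The median part of mt-Co1 in the pair was 33.3% in shallow chow barcodes and 49.3% in deep ones, and 32.5% and 48.7% on the NASH diet. The deep NASH diet barcodes had a wide shoulder toward low mt-Co1, with a lower quartile of 38.6% against 43.5% in chow.

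**Figure D4:**
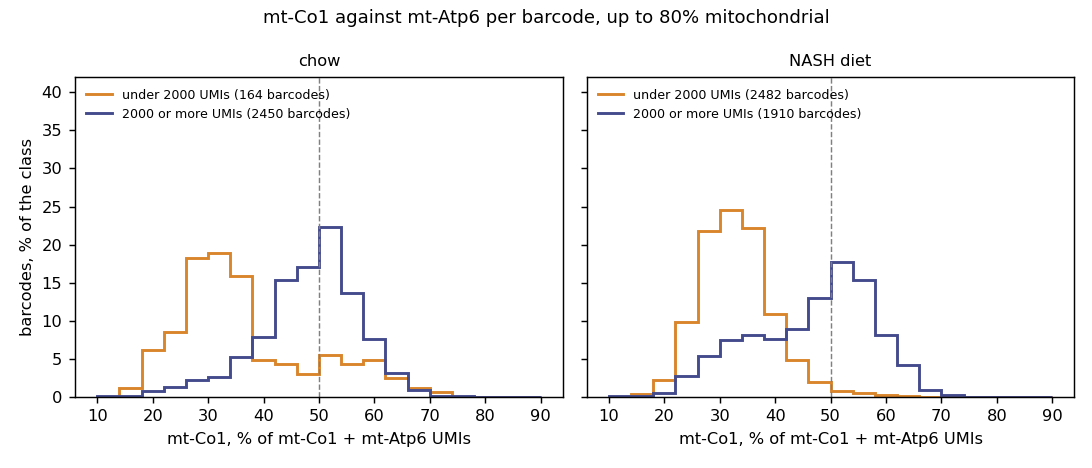
Barcodes up to 80% mitochondrial, thinned to 200 member UMIs, by the part of mt-Co1 among the UMIs of mt-Co1 and mt-Atp6, as percent of the barcodes of each depth class. The shallow barcodes (orange) centre near 33% on both diets and the deep ones (dark blue) near 49%, and the dashed line marks equal counts.

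Over all thinned barcodes the proportions varied beyond counting. The standard deviation of mt-Co1 over barcodes was 1.48 times that of counting alone in chow and 1.85 times on the NASH diet. For mt-Nd5 these were 1.06 and 1.09, so at 200 UMIs the spread of mt-Nd5 was hardly larger than counting error. The median mt-Co1 proportion was 18.5% in chow and 14.5% on the NASH diet, that of mt-Nd1 5% and 3.5%, and that of mt-Atp6 19% and 21.5%. These medians differ more between diets than the pooled proportions do, and the thinned NASH diet barcodes include 2482 shallow ones where chow has 365. When 500 member UMIs were asked for instead, 2376 barcodes in chow and 2587 on the NASH diet had too few member UMIs to enter. The medians then came closer, at 18.6% and 18% for mt-Co1, 5.4% and 4.8% for mt-Nd1 and 18.6% and 19% for mt-Atp6.

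The marker gates gave levels by cell class. The hepatocyte gate took 4513 chow and 4076 NASH diet barcodes, with all 8 markers detected on either diet. The members held 21.4% of its UMIs in chow and 29.2% on the NASH diet, 1.37-fold higher. The gate asks for at least 500 non-mitochondrial UMIs, which keeps most barcodes over 80% out of it: only 238 chow and 274 NASH diet barcodes in it exceeded 80%. With 2000 or more UMIs the shares were 21.7% and 29.0%, and with under 2000 UMIs they were 8.56% and 32.0%. The change of profile with depth was there as well, with mt-Co1 at 12.6% in shallow and 18.0% in deep chow hepatocyte barcodes, and at 11.8% and 18.5% on the NASH diet.

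Endothelial barcodes, 55 in chow and 61 on the NASH diet, held less mitochondrial RNA than hepatocyte barcodes on either diet. The members made up 14.5% (14.4 to 14.6) of their UMIs in chow and 18.8% (18.7 to 18.9) on the NASH diet, 1.30-fold higher. In deep endothelial barcodes mt-Co1 led the profile, at 19.9% in chow and 20.8% on the NASH diet, with mt-Atp6 at 17.8% and 17.3%. In deep hepatocyte barcodes mt-Atp6 led instead, at 19.5% and 18.6%, with mt-Co1 at 18.0% and 18.5%.

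Kupffer cell and macrophage barcodes, the phagocytes of the liver, had the largest gap between diets of the 3 classes compared. In chow 76 barcodes held 10.4% (10.3 to 10.5) of their UMIs in the members, and on the NASH diet 137 barcodes held 32.3% (32.1 to 32.4), 3.1-fold more. Their median depth also differed, at 3864 and 1171 UMIs. A wide gap was not particular to this class, since hepatocyte barcodes under 2000 UMIs held 8.56% in chow and 32.0% on the NASH diet. With 2000 or more UMIs, 45 chow and 26 NASH diet barcodes gave 9.42% and 23.5%, 2.50-fold more. All 9 class markers were detected on both diets, summed to 31513 CPM of non-mitochondrial UMIs in chow and 20912 on the NASH diet, while the hepatocyte markers in the same barcodes summed to 6066 and 16331 CPM. The part of hepatocyte RNA and of depth in this difference was not tested.

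In deep Kupffer and macrophage barcodes the profile differed too, with mt-Co1 at 20.1% in chow and 15.6% on the NASH diet, and mt-Nd1 at 5.49% and 3.62%. The 18 deep T and NK barcodes of the NASH diet held mt-Co1 at 15.8%, mt-Nd1 at 3.70% and mt-Atp6 at 23.8%. Low proportions of mt-Co1 and mt-Nd1 were thus not confined to barcodes under 2000 UMIs. The chow library had only 6 T and NK barcodes, and the B and plasma, neutrophil, mesenchymal, cholangiocyte and erythroid gates had fewer than 10 there as well, so these classes were not compared.

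**Figure D5:**
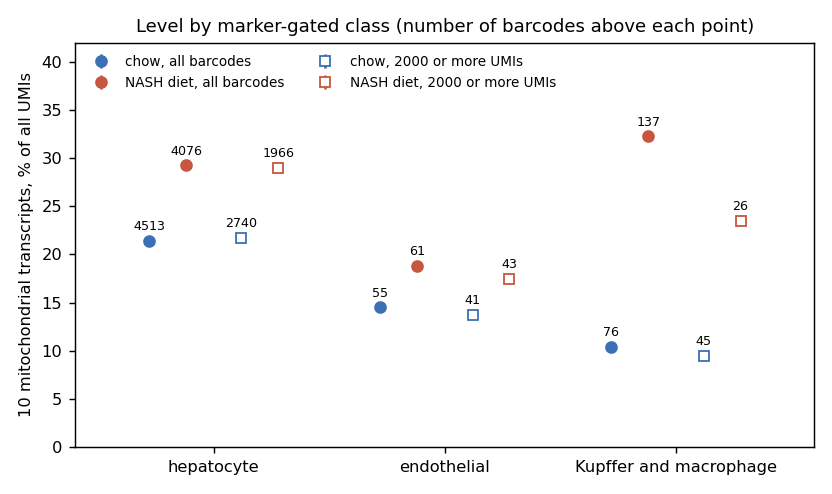
Summed UMIs of the 10 messengers as percent of all UMIs in 3 marker-gated classes, for chow (blue) and the NASH diet (red), over all barcodes (filled) and those with 2000 or more UMIs (open). Bars, smaller than most points, are 95% counting intervals, and the Kupffer and macrophage class has the widest gap between diets, 10.4% against 32.3%.

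Genes that make, process or work with these messengers were given by 4 lists. Over all barcodes 0 genes of any list were past 2-fold between diets, beside 5.63% of all genes tested, and the counts of higher genes stand beside 69.2% of all genes tested. Of 16 genes for transcription and replication of mitochondrial DNA, 5 had a mean of at least 10 CPM, 4 of them were higher on the NASH diet, and their median log2 ratio was 0.37 beside 0.15 over all genes tested. Tfam, which packs mitochondrial DNA and starts its transcription, stood at 23.2 CPM in chow and 35.4 on the NASH diet, a log2 ratio of 0.59. Tfb2m, its partner in initiation, had 0.46, and the single-strand binding protein Ssbp1 0.37.

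Of 24 symbols listed for processing, polyadenylation and stability of mitochondrial RNA, 22 were in the files and 13 were abundant enough, with 12 higher and a median of 0.34. Hsd17b10, a subunit of the enzyme that cuts the 5′ ends of mitochondrial transfer RNAs, stood at 67.1 CPM in chow and 130 on the NASH diet, a log2 ratio of 0.94. Angel2 had 0.51 and Tbrg4, of the FASTK family of mitochondrial RNA-binding proteins, 0.46. All 20 nuclear-encoded partners in the same complexes were measured, 19 of them higher, with a median of 0.33. Atp5c1, the gamma subunit of ATP synthase, had a log2 ratio of 0.69, the complex I subunit Ndufs1 0.56 and the Rieske protein Uqcrfs1 of complex III 0.52. Of the nuclear-retained RNAs, Malat1 had 0.83, Mlxipl 0.18 and Neat1 0.04.

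Over the 8 pools of diet and band, the genes whose level among non-mitochondrial UMIs went most closely with the pool's mitochondrial share were ranked by Pearson r among 1316 genes. The 8 points share libraries and differ in depth and in cell makeup, so r is a description. Lars2, the mitochondrial leucyl-tRNA synthetase, had the highest r, 0.93. It stood between 48.0 and 351 CPM in the chow pools up to 80% and at 18376 CPM over 80%, and on the NASH diet between 176 and 1256 CPM and at 16894 CPM. Gm42418, a noncoding transcript, followed with 0.90 and reached 62787 CPM over 80% in chow and 83126 CPM on the NASH diet. Both were thus high mainly in the highest band, which held 671951 non-mitochondrial UMIs in chow and 471164 on the NASH diet. Whether the UMIs assigned to Lars2 and Gm42418 came from transcripts of these genes themselves was not tested.

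The next 3 were hepatocyte genes with much smaller ranges, the anticoagulant protease Proc (r of 0.84), coagulation factor F10 (0.81) and the esterase Aadac (0.81). Proc went from 184 to 365 CPM over the chow bands and from 148 to 452 CPM over those of the NASH diet. At the other end stood Serinc3 (-0.95), the lipid phosphatase Plpp3 (-0.93), the Golgi sorting receptor Rer1 (-0.93), the surface protein Cd47 (-0.91) and the presenilin Psen2 (-0.89). Serinc3 went from 211 to 69.9 CPM between the lowest and the highest band in chow and from 279 to 78.5 CPM on the NASH diet. Plpp3, which is also 1 of the endothelial markers used for the gate, went from 172 to 53.6 CPM and from 235 to 78.5 CPM.

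Among the messengers themselves, the proportions that moved most alike over the 8 pools were those of mt-Co1 and mt-Nd4 (r of 0.90) and of mt-Nd1 and mt-Nd4 (0.90). mt-Co1 and mt-Atp6 moved most opposite (-0.86). Proportions sum to a fixed total, which by itself pulls such values toward negative, so these too are only a description of 8 pools.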

How the data were processed

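UMI counts per gene and barcode were deposited by the authors as whole numbers with no normalization, per the file headers and values. The submitters' processing notes name Cell Ranger 3.1.0, Seurat and the build mm10, while the file headers give version 3.0.2. The kit is the 10x Genomics 3' kit, version 3, per the labels. Each library's own matrix was used, with every barcode and no doublet removal. Columns left unmatched to a sample numbered 0. The merged matrix, whose chow part holds 61889255 UMIs (86.4% of the library's own), was an alternative.

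The members and lists were chosen with earlier results of these data known. Sums over barcodes were set as CPM of all UMIs or as percent of the 10 members. A proportion past 1.5-fold, or a level past 2-fold on the log2(CPM + 1) scale among genes with a mean of at least 10 CPM, was called a difference. Named genes were all members, the 5 highest and 5 lowest in Pearson r with the mitochondrial share among genes with a mean of at least 100 CPM over the 8 pools, and the 3 largest ratios of each list. A non-parenchymal class needed 5 UMIs from 3 of its markers, 0.5% of non-mitochondrial UMIs and 3 times any other such class. A hepatocyte barcode needed 500 non-mitochondrial UMIs, markers at 2% of them and no other class. The split at 2000 UMIs and its alternatives were chosen after seeing the data. Proportions by diet were recounted in 9 ways: the merged matrix, at least 200 genes, at least 1000 UMIs, the hepatocyte gate, at most 30% mitochondrial UMIs, the mean over barcodes, the 13 genes as denominator, and under or from 2000 UMIs. The list symbols Prorp and Fastkd4 (another name of Tbrg4) are not in the feature files. Nuclear copies were sought with blastn 2.17.0 against the GENCODE M21 transcripts. Thinning used seed 1. Scripts ran in Python 3.11.15 with numpy 2.4.6, scipy 1.17.1, pandas 2.3.3 and matplotlib 3.10.9 and were tested on simulated data.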

Additional observations from a re-analysis of the deposited data

How the results depend on the processing

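The log2 ratio of the members' summed share, 0.15, was 0.13 with the merged matrix, 0.37 with at least 200 genes, 0.14 with at least 1000 UMIs and -0.030 as a mean over barcodes, where its direction turned. The count of proportions past 1.5-fold between diets was 0 under all 9 alternatives. The members with the same sign in all 4 bands, 1 at first, were 2 with the merged matrix (mt-Nd4 added), 3 as means over barcodes (mt-Co2 and mt-Nd1 added), 2 with limits of 10, 25 and 75% (mt-Nd5 added) and 2 with limits of 20, 40 and 85% (mt-Nd1 added), and mt-Nd2 was among them each time. Genes past 2-fold between diets, 321, were 663 with no filter and 194 with a pseudocount of 10 CPM. Members past 1.5-fold between shallow and deep barcodes on both diets, 1, were 2 (mt-Co1 and mt-Nd1) with a split at 1000 UMIs and 0 at 5000 UMIs, where 9 of 10 still had the same sign on both diets. The cause of these changes was not tested. No paired analysis was possible because each diet has 1 library. Counting error is small for pooled values, since even mt-Nd6 had 10962 UMIs or more per library, and it is the spread between animals that these data cannot give.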
